A study of Mus musculus with 4 samples.

Results

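The 10-day library of all-trans retinoic acid (ATRA) treated mouse embryoid bodies was set against the 6-day library, to describe how these aggregates differed late in the series. The comparison uses 2 of the 4 libraries, 1 library a side, and was made by gene: rows sharing a symbol were summed, and a gene was compared where either library reached 1 FPKM (fragments per kilobase of transcript scaled to the mapped fragments of the library). Of 9997 symbols in the table, 5550 passed this filter and 4447 lay below 1 FPKM in both libraries. The difference is log2(FPKM + 1) at 10 days minus the same at 6 days. A gene is called higher or lower where that difference reaches 2-fold. Because 1 is added to each level, a gene short of 2-fold in this measure can have an FPKM ratio above 2.

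Embryoid bodies are balls of differentiating embryonic stem cells grown in suspension, here of the mouse line ES-E14TG2a. Per the labels' protocols, 5 µM ATRA was put into the medium on days 4 and 6 of embryoid body culture to induce neural differentiation, and after 8 days the bodies were moved to dishes coated with poly-DL-ornithine and laminin. The labels call the 4 groups control, ATRA 0 days, ATRA 6 days and ATRA 10 days, and all share this parent line. They do not give the event from which the days are counted, nor whether each library was taken before or after the move to coated dishes, so age in culture and growth on a coated surface cannot be told apart. No group was repeated, so no difference below has a replicate check, a test or an SD, and each describes these libraries. In bulk RNA, more cells of a type and more RNA per cell cannot be told apart.

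ATRA is the signalling form of vitamin A. It binds nuclear receptors that sit on DNA as pairs and switch target genes, among them the Hox genes that set position along the body axis. Embryoid bodies without a spatial plan form derivatives of all germ layers and extraembryonic cells, and ATRA is used to shift the mixture towards neurons.

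The depth was estimated from the FPKM that a single fragment is worth, at about 25200000 fragments for 6 days and 27300000 for 10 days. At 5 FPKM a transcript of 1 kb then rests on 126 and 136 fragments, with counting errors of 8.91% and 8.56%, and 3 fragments correspond to 0.119 and 0.110 FPKM. The genes compared lie on chromosomes 1 and 10 to 18, with few exceptions; other chromosomes were not analysed here. All named cell types had their markers above 0 in both libraries, but at very unequal levels. Simple epithelium had the highest summed marker level, 2408 FPKM at 6 days and 4054 at 10 days over 7 markers, while the 6 neuron markers summed to 159 and 95 FPKM and the astrocyte marker Gfap was at 0.212 and 1.34 FPKM. The pluripotency factor Pou5f1 was at 150 and 141 FPKM, against 1241 in the control.

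At 10 days 218 genes were higher (3.93% of those tested) and 50 were lower (0.901%). Counts given for gene lists below are to be read beside these shares. Small lists with none or 1 gene higher lie near the first share. At 4-fold the counts were 29 (0.523%) and 7 (0.126%). The median difference over all 5550 genes was 0.03, the 5th and 95th percentiles were -0.63 and 0.91, and 81.0% of genes lay within 1.5-fold. Of the 218 higher genes 43 were below 1 FPKM at 6 days and so passed the filter only through the library where they were high; 14 of the 50 lower genes passed only through the 6-day library. All 14 higher genes that were listed at 0 at 6 days are small RNAs, which are shorter than a sequenced fragment and whose FPKM is unstable, and they get no fold here. The 10-day library held the highest of the 4 levels for 196 of the 218 higher genes (89.9%), against 31.4% of all tested genes, and choosing genes with a 10-day level above the 6-day level partly fixes that count. Of the 50 lower genes, likewise chosen, 31 had their highest level at 6 days (62%, against 10.2% of all tested genes) and 25 their lowest in the control (50%, against 34.4%). Just inside the threshold lay the surface protein Ly6d at 1.003, and just outside it the kinase Ikbke at 0.999, with 4.78 and 10.6 FPKM. On the lower side the chemokine receptor Cxcr4 was just inside at -1.004 and the serpin Serpinb9e just outside at -0.99.

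**Figure D1:**
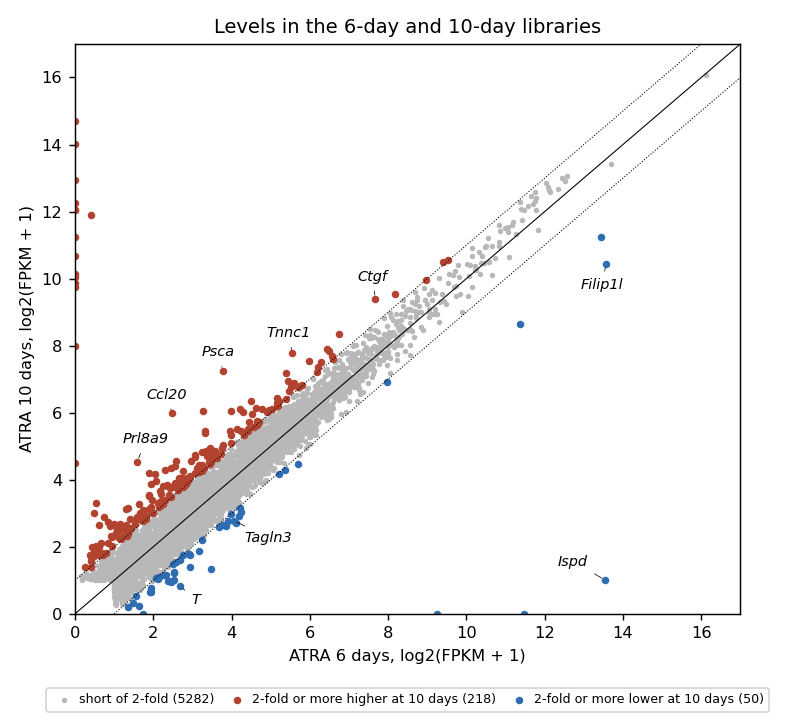
Each point is 1 of 5550 genes, with its level at 6 days on the horizontal and at 10 days on the vertical axis, both as log2(FPKM + 1). The solid line marks equal levels and the dotted lines a 2-fold difference. Red points (218) are higher and blue points (50) lower at 10 days; the red points on the left edge are small RNAs listed at or near 0 at 6 days.

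The split between higher and lower calls depended on scaling. It was 218 against 50 as deposited (81.3% higher), 158 against 76 after upper-quartile scaling (67.5% higher), which also moved the median of all genes to -0.09, and 207 against 54 after median-ratio scaling. Differences also moved with transcript properties. From the shortest to the longest of 5 classes of transcript length, the median difference ran 0.29, 0.09, 0.01, -0.07 and -0.12, and the share of higher genes from 10.6% to 0.816%. From the lowest to the highest of 5 classes of GC content, the median ran -0.21, -0.11, 0.03, 0.18 and 0.32. Spearman's rho across 5512 genes was -0.287 with length and 0.423 with GC content; genes of a library share its preparation and are not independent. The higher genes had a median transcript length of 1803 nt and the tested genes 3290 nt. When each difference was centred on the median of genes of like length and GC content, 148 genes were higher and 68 lower (68.5% higher), of which 127 and 42 were among the calls above. The part of length and GC content in any one gene's difference was not tested, so centred values stand below beside the groups they move.

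**Figure D2:**
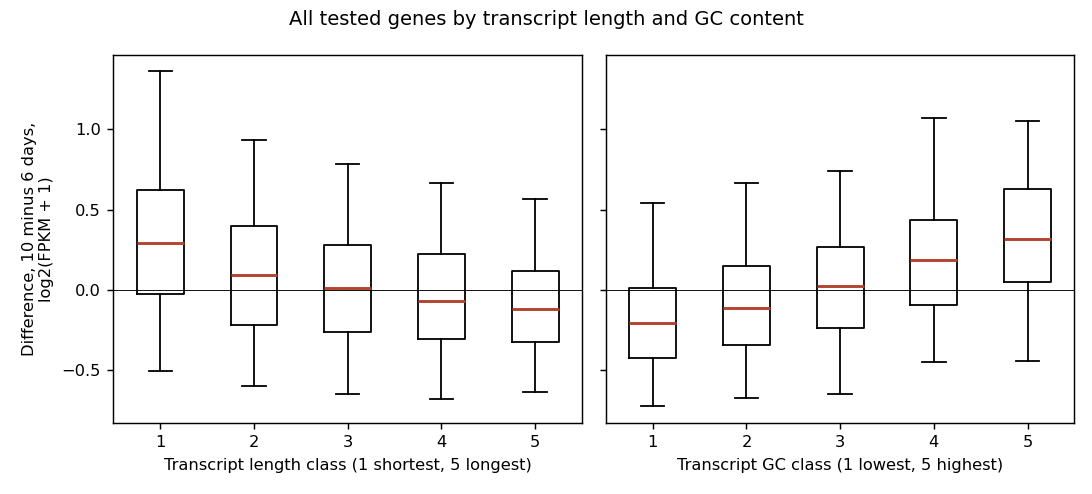
Differences of the tested genes with a transcript model, in 5 classes of transcript length and 5 classes of GC content. The red line is the median, the box runs from the lower to the upper quartile and the whiskers the 5th and 95th percentiles; medians fall from 0.29 to -0.12 with length and rise from -0.21 to 0.32 with GC content.

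Heart and skeletal muscle contract when calcium binds troponin and lets myosin pull on actin. Structural genes of this machinery were higher at 10 days: 6 of 11 tested were 2-fold or more higher and none lower. Over all genes 3.93% were higher and 0.901% lower. The list had a median difference of 1.10 against 0.03 over all genes, and 4 of the 11 passed only through the 10-day library. Myl7, the regulatory light chain of atrial myosin (chromosome 11, 5896637 to 5898782, mm10), was at 12.7 FPKM in the control and at 10.2, 8.57 and 65.7 at 0, 6 and 10 days. Its 3 earlier levels lay close together and the 10-day level was 7.66 times that at 6 days, a difference of 2.80. Tnnc1, the calcium-binding troponin of heart and slow muscle (chromosome 14, 31208312 to 31211729), was at 1.54, 2.05, 45.7 and 217 FPKM in the same order. It was thus already high at 6 days, and differed by a further 2.22. Its partners in the thin filament were lower in level: Tnni1, the inhibitory troponin of slow muscle, went from 2.12 to 8.77 FPKM, and Tnnt2, the tropomyosin-binding troponin of heart, from 0.911 to 3.09. Myh7, the slow myosin heavy chain, went from 0.795 to 3.33 FPKM and Myl4, the embryonic and atrial light chain, from 4.12 to 13.3. Myl4 was the exception in its course, with its highest level, 35.6 FPKM, in the control. The muscle intermediate filament Des (10.6 and 20.4 FPKM) and myoglobin Mb (1.51 and 2.79) were short of 2-fold. Centring left 6 of the 11 genes 2-fold or more higher, with a median of 1.08.

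The regulators of heart muscle did not differ in this way. Of 18 tested cardiac and mesodermal transcription factors none was 2-fold higher and 2 were lower, against 3.93% and 0.901% over all genes. A count of none higher is near that share. The median was -0.15, and 0.02 among genes at 5 FPKM or more. Gata4 was at 92.1 FPKM at 6 days and 90.6 at 10 days, and Gata6 at 26.7 and 27.1; both also act in endoderm. Hand1, a factor of heart and trophoblast, was at 9.44 and 17.5 FPKM, and the heart factor Nkx2-5 at 0.864 in both libraries, below the filter. The 2 lower factors were T (Brachyury), which defines early mesoderm, and Pax3, a factor of dorsal neural tube and muscle progenitors (1.97 and 0.433 FPKM). Both passed the filter only through the 6-day library, as did 7 of the 18 in all. T was at 0.0392 FPKM in the control and at 0.0176, 5.44 and 0.776 at 0, 6 and 10 days. It was high in the 6-day library alone, with a difference of -1.86; Pax3 fell short of 2-fold after centring (-0.97). Of 8 smooth muscle and contractile genes 2 were higher, Fhl2 (24.2 and 52.9 FPKM) and Cnn2 (94.3 and 205), and both fell short after centring (0.77 and 0.91) and after upper-quartile scaling (0.97 and 0.98).

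The windows of 250 bases before the RefSeq transcription start (GRCm38.p6) of the 2 muscle genes with the largest differences are shown because sites for muscle regulators are known in promoters of this kind. Capitals mark a CArG box, the motif bound by serum response factor, in Myl7, and GGAATG, the core bound by TEAD factors, in Tnnc1. The Myl7 window is chr11:5898783-5899032 on the minus strand and the Tnnc1 window chr14:31208062-31208311 on the plus strand.
Myl7: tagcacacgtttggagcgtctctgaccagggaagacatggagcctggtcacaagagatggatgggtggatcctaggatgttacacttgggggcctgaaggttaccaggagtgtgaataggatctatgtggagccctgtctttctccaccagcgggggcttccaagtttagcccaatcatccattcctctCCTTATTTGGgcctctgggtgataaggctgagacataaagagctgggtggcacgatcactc
Tnnc1: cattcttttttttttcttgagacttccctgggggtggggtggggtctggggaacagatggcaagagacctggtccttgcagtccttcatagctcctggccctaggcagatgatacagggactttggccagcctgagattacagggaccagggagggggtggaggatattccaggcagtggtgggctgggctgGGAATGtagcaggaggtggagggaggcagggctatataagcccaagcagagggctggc

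The CArG box of Myl7 lies at -61 to -52 and the GGAATG of Tnnc1 at -58 to -53, counted back from the start. With both strands searched, 1.4% of 27025 RefSeq windows of this length held a CArG box and 12.6% held GGAATG. Among the 11 tested muscle genes, all with a window, 2 held a CArG box (Ldb3 and Myl7) and 5 held GGAATG (Lmod1, Myh7, Myl7, Tnnc1 and Tnnt2). These matches describe the letters only, and both motifs were picked with the values known.

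Collagen fibrils of connective tissue are spun by fibroblasts, and their genes were the next group. Of 25 tested genes of interstitial collagens and fibrils 5 were higher and none lower, against 3.93% and 0.901% over all genes. The median was 0.54, 7 of the 25 differences were negative, and 5 of the 25 passed only through the 10-day library. Col1a1, a chain of the main fibrillar collagen, was at 0.328 FPKM in the control and at 1.79, 14.6 and 42.8 at 0, 6 and 10 days, and Col3a1, of the finer fibrils, at 0.00631, 0.123, 20.4 and 42.5. Both increased over the 3 ATRA libraries, by 1.49 and 1.02 in the last interval. Lox, which cross-links collagen, went from 0.841 to 5.15 FPKM (1.74), and the fibril-binding proteoglycans Lum and Dcn from 1.08 to 4.73 (1.46) and from 4.83 to 13.9 (1.36). The most abundant member, Sparc, a collagen-binding glycoprotein of basement membranes and bone, was short of 2-fold at 1862 and 2711 FPKM. The 5 fibroblast markers summed to 43.1 FPKM at 6 days and 107 at 10 days. Col1a1, Col3a1, Lum and Dcn are among them, so this sum repeats the values above. The remaining marker, Pdgfrb, was at 2.14 and 2.59 FPKM, short of 2-fold. Col3a1 fell short of 2-fold after upper-quartile scaling (0.89). The negative differences included those of Has2 (4.14 and 1.63 FPKM, -0.97), Col2a1 (10.9 and 6.00, -0.77) and Vcan (14.4 and 8.32, -0.72). After centring 6 of the 25 were higher and 1, Col2a1 (-1.02), was lower, with a median of 0.48.

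In basement membranes, the sheets under epithelia, 2 of 10 tested genes were higher, among them the laminin chain Lama4 (1.55 and 4.47 FPKM, 1.10). The embryonic laminin chains Lama1 (156 and 179 FPKM) and Lamb1 (320 and 493) were more abundant and short of 2-fold. None of 7 tested integrin subunits, the receptors for these proteins, reached 2-fold, yet all 7 differences were positive, between 0.54 and 0.78, and all 7 genes were in the 2 classes of highest GC content. Of 12 matrix proteases and inhibitors 2 were higher, plasminogen (Plg, 2.08 and 6.14 FPKM) and the metalloprotease inhibitor Timp2 (23.9 and 48.9), and Timp2 fell short after centring (0.87) and both scalings (0.99 and 0.88).

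Liver and its embryonic counterpart, visceral endoderm, secrete the carrier proteins, complement and clotting factors of plasma. Of 20 tested genes for such proteins 11 were higher and none lower, against 3.93% and 0.901% over all genes. All 20 differences were positive, and the median was 1.14. Through the 10-day library alone, 5 of the 20 passed the filter. Kng1, the precursor of bradykinin (chromosome 16, 23057865 to 23082078), was at 0.0437 FPKM in the control and at 2.34, 14.8 and 64.9 at 0, 6 and 10 days. Apoa2, an apolipoprotein of high-density lipoprotein, was at 0.107, 6.24, 40.8 and 146 FPKM. Both increased in each library of the ATRA series, by 2.06 and 1.81 in the last interval. Apom, a carrier of sphingosine phosphate, did so too, with 2.47 in the control and 5.92, 23.6 and 69.4 in the ATRA series. Complement C3 instead dipped at 6 days, with 0.0561, 6.81, 4.84 and 20.3 FPKM. Others started below or near 1 FPKM at 6 days: Apoh (0.520 and 5.21), the inhibitor family member Itih4 (0.987 and 5.46) and Kng2 (0.356 and 2.96). The abundant thyroid hormone carrier Ttr, at 183 and 356 FPKM, was just short of 2-fold (0.96), and so was vitronectin, Vtn, at 30.9 and 59.1. After centring 9 of the 20 were 2-fold or more higher, with a median of 0.93; fetuin Ahsg (5.30 and 12.6 FPKM) fell to 0.78 and Serpina1a (6.26 and 15.5) to 0.997, and Ahsg was also at 0.99 after upper-quartile scaling.

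Transcription factors and receptors of endoderm did not share this course: the median of 15 tested was -0.05. None was higher and 1 was lower, and with 3.93% higher over all genes a count of none is near that share. The lower gene was Cxcr4, at 0.636 FPKM in the control and at 0.366, 5.71 and 2.35 at 0, 6 and 10 days. Dab2, the endocytic adaptor of visceral endoderm, was at 184 and 161 FPKM, and Sox17 at 39.6 and 43.5. Among 21 serpins and Spink inhibitors 3 were higher, Serpina3k (0.426 and 2.63 FPKM), Serpinb6b (4.33 and 12.4) and Serpina1a. Serpina and Serpinb genes have near-identical copies between which the authors' quantification could split reads. Spink1, a trypsin inhibitor, was the most abundant at 1122 and 1924 FPKM, short of 2-fold.

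The rodent placenta makes a large family of prolactin-like hormones, clustered on chromosome 13. The table held 26 placental prolactins, of which 11 passed the filter, 5 of them only through the 10-day library. Of the 11, 6 were higher and none lower, against 3.93% and 0.901% over all genes, and the median was 1.28. Prl8a9 (27557995 to 27564606) was listed at 0 in the control and was at 0.0469 FPKM at 0 days, 2.01 at 6 days and 22.3 at 10 days. Prl2c3 was listed at 0 in the control and at 0 days, and was at 0.447 and 8.94 FPKM after that, resting on about 10 and 209 fragments. Prl2a1 (7.38 and 24.8 FPKM) and Prl3b1, placental lactogen II (0.669 and 6.37), were also higher. These genes were near or at 0 outside the 2 last libraries. Prl6a1 (5.03 and 4.38 FPKM), Prl2b1 (19.3 and 29.4) and Prl7d1 (1.94 and 4.70, a difference of 0.95) were short of 2-fold, the first with a negative difference. Prl2c2, Prl2c3 and Prl2c5 are near-identical, and which of them the fragments came from is uncertain. All 11 genes were in the 2 classes of lowest GC content, whose medians over all genes were below 0, and after centring 7 of them were higher, with the median at 1.28.

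Of 7 placental cathepsins and spongiotrophoblast genes 3 were higher and none lower, with 2 of the 7 passing only through the 10-day library. Ctsj, a cathepsin of placenta, was at 0.0675 FPKM in the control, was listed at 0 at 0 days, and was at 8.91 at 6 days and 43.1 at 10 days (2.15). Ctla2a, a cathepsin inhibitor homologue, went from 1.14 to 5.10 FPKM and Tpbpb from 0.606 to 2.55. The spongiotrophoblast marker Tpbpa was short of 2-fold, at 19.2 and 28.0 FPKM, and none of 3 trophoblast transcription factors reached 2-fold (Hand1, Ets2 and Dlx3). The 4 trophoblast markers summed to 48.0 FPKM at 6 days and 75.6 at 10 days.

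**Figure D3:**
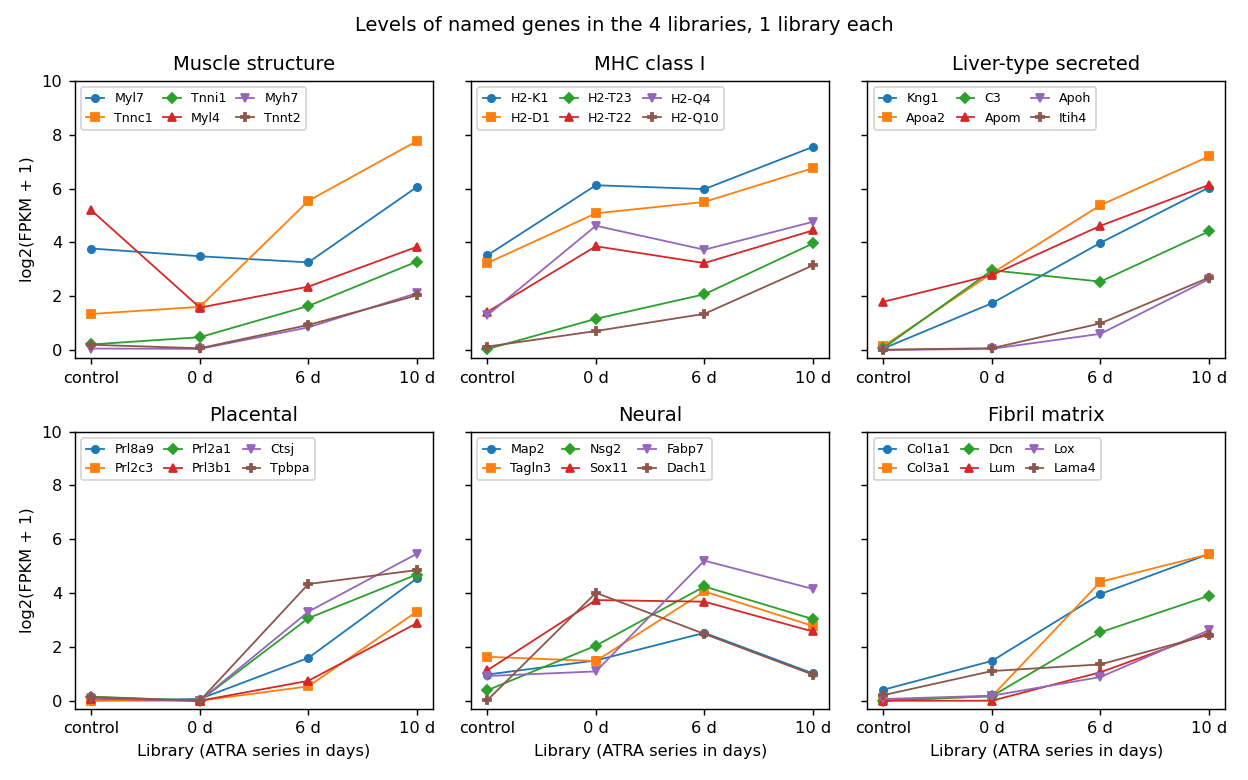
Levels of 36 named genes in the 4 libraries, as log2(FPKM + 1), 6 genes a panel. Lines join the single values of a gene and carry no error. Placental genes were near 0 until the 6-day library, most neural genes were highest at 6 days, and Myl4 was highest in the control.

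Neuronal and neural progenitor genes leaned lower, while the synapse list and the mixed list of crest and glial genes did not. This lean was not theirs alone. The 6 reference genes had a median of -0.43, and of -0.29 after centring, and 96 of 117 Zfp genes had negative differences. Among 21 tested pan-neuronal genes 3 were lower and 1 higher, against 0.901% lower and 3.93% higher over all genes, and 17 of the 21 differences were negative, with a median of -0.39. Map2, which bundles microtubules in dendrites, was at 0.964 FPKM in the control and at 1.82, 4.74 and 1.02 at 0, 6 and 10 days, so its 10-day level was close to the control's. Tagln3, an actin-binding protein of neurons (chromosome 16, 45711230 to 45724608), was at 2.10, 1.78, 15.7 and 5.87 FPKM. Nsg2, a vesicle protein of neurons, was at 0.310, 3.13, 18.0 and 7.19 FPKM. The differences of these 3 genes were -1.51, -1.28 and -1.21, and in Tagln3 and Nsg2 the 10-day level stayed above those of the control and 0 days. Abundant cytoskeletal genes were short of 2-fold: the tubulins Tuba1a, at 378 and 210 FPKM (-0.84), and Tubb2b, at 88.6 and 59.4 (-0.57), and the neurofilament Nefl, at 39.6 and 21.8 (-0.83). Prph, the intermediate filament of peripheral neurons, was the exception, at 3.56 and 8.45 FPKM (1.05), but it was highest at 0 days with 32.7 FPKM, and it fell short after centring (0.57) and after upper-quartile scaling (0.94). Outside the list, the neuronal septin Sept3 was at 1.44, 5.78, 6.69 and 1.64 FPKM (-1.55) and the long noncoding RNA Pantr1 at 0.106, 0.662, 13.5 and 5.14 (-1.24), both highest at 6 days. Centring moved the median of the list to -0.64, with 4 genes lower and none higher.

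Progenitor genes were lower too: 4 of 18 were 2-fold or more lower and none higher, with a median of -0.51, and 6 of the 18 passed only through the 6-day library. Fabp7, the fatty acid binding protein of radial glia, was at 0.890 FPKM in the control and at 1.13, 35.9 and 16.8 at 0, 6 and 10 days. Dach1, a transcription cofactor, was instead highest at 0 days (15.1 FPKM), and went from 4.59 to 0.958 between 6 and 10 days. N-cadherin, Cdh2, went from 6.48 to 2.42 FPKM, and Sox11, a factor of progenitors and young neurons, from 11.8 to 4.95 after 12.4 at 0 days. The Notch target Hes1, at 33.0 and 45.4 FPKM, had a positive difference short of 2-fold (0.45). After centring Sox11 fell short (-0.97), which left 3 genes lower. The 6 neuron markers summed to 159 and 95 FPKM, with 89.4 in the control, and Tubb2b gave the largest part (88.6 and 59.4). The 4 progenitor markers summed to 81.9 and 69.1, of which Hes1 gave 33.0 and 45.4.

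Of 15 proneural and neuronal transcription factors 3 were lower and 1 higher, 13 of the differences were negative and the median was -0.71, but 8 of the 15 passed only through the 6-day library and 1 only through the 10-day library. Nhlh1, a factor of newborn neurons, was listed at 0 in the control and was at 0.108, 2.79 and 0.557 FPKM over the ATRA series. Pou4f1, a factor of sensory neurons, was at 4.83, 8.28, 4.76 and 1.37 FPKM, lowest at 10 days. Gadd45g, a stress-inducible target of proneural factors, was higher (31.6 and 67.8 FPKM) and fell short after centring (0.60). Of 9 synapse, channel and transmitter genes 5 had positive differences, with a median of 0.20 that was -0.03 after upper-quartile scaling. Nlgn2, a postsynaptic adhesion protein, was at 16.4 and 19 FPKM, short of 2-fold. The somatostatin gene Sst was the single gene past 2-fold, and was lower. It was listed at 0 in the control and was at 4.26, 8.02 and 2.68 FPKM over the ATRA series, a last difference of -1.29.

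Among 20 neural crest and glial genes 2 were higher and 2 lower, with a median of 0.06 that was -0.06 after upper-quartile scaling; 3 of the 20, the lower gene Pax3 among them, passed only through the 6-day library. The endothelin receptor Ednrb, which crest cells need to colonise gut and skin, was at 0.129 FPKM in the control and at 30.4, 17.1 and 6.57 at 0, 6 and 10 days, falling through the ATRA series. Clusterin, Clu, a secreted chaperone of many cell types, was at 19, 288, 290 and 743 FPKM, and the myelin protein Pmp22 at 0.275, 15.9, 12.4 and 30.0. Clu fell short after centring (0.87). The list mixes crest with glial genes, and members short of 2-fold went both ways. Tfap2b (-0.84), Ngfr (-0.74) and Sox9 (-0.40) had negative differences. Gfap (0.95), Mbp (0.48), Erbb3 (0.35), Snai2 (0.15), Tfap2a (0.10) and Twist1 (0.02) had positive differences. The crest and oligodendrocyte factor Sox10 was at 0.183 and 0.0734 FPKM, below the filter.

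The Hox genes, which ATRA induces directly in many embryonic cells, were also lower or short of the threshold at 10 days. Of 11 Hoxb and Hoxc genes 2 were lower and none higher, 9 differences were negative, and the median was -0.44. Hoxc5 was at 0.0426 FPKM in the control and at 26.5, 5.36 and 2.04 at 0, 6 and 10 days, and Hoxc6 at 0.0912, 4.6, 14.9 and 6.83. The former was highest at 0 days and the latter at 6 days. All 5 tested Hoxb genes had negative differences short of 2-fold, among them Hoxb5, which was at 56.2 FPKM at 0 days, 11.3 at 6 days and 8.44 at 10 days. None of 12 retinoid signalling genes reached 2-fold, with a median of -0.11 that was 0.01 among genes at 5 FPKM or more; the retinol dehydrogenase Rdh10 was at 14.6 and 15.8 FPKM.

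**Figure D4:**
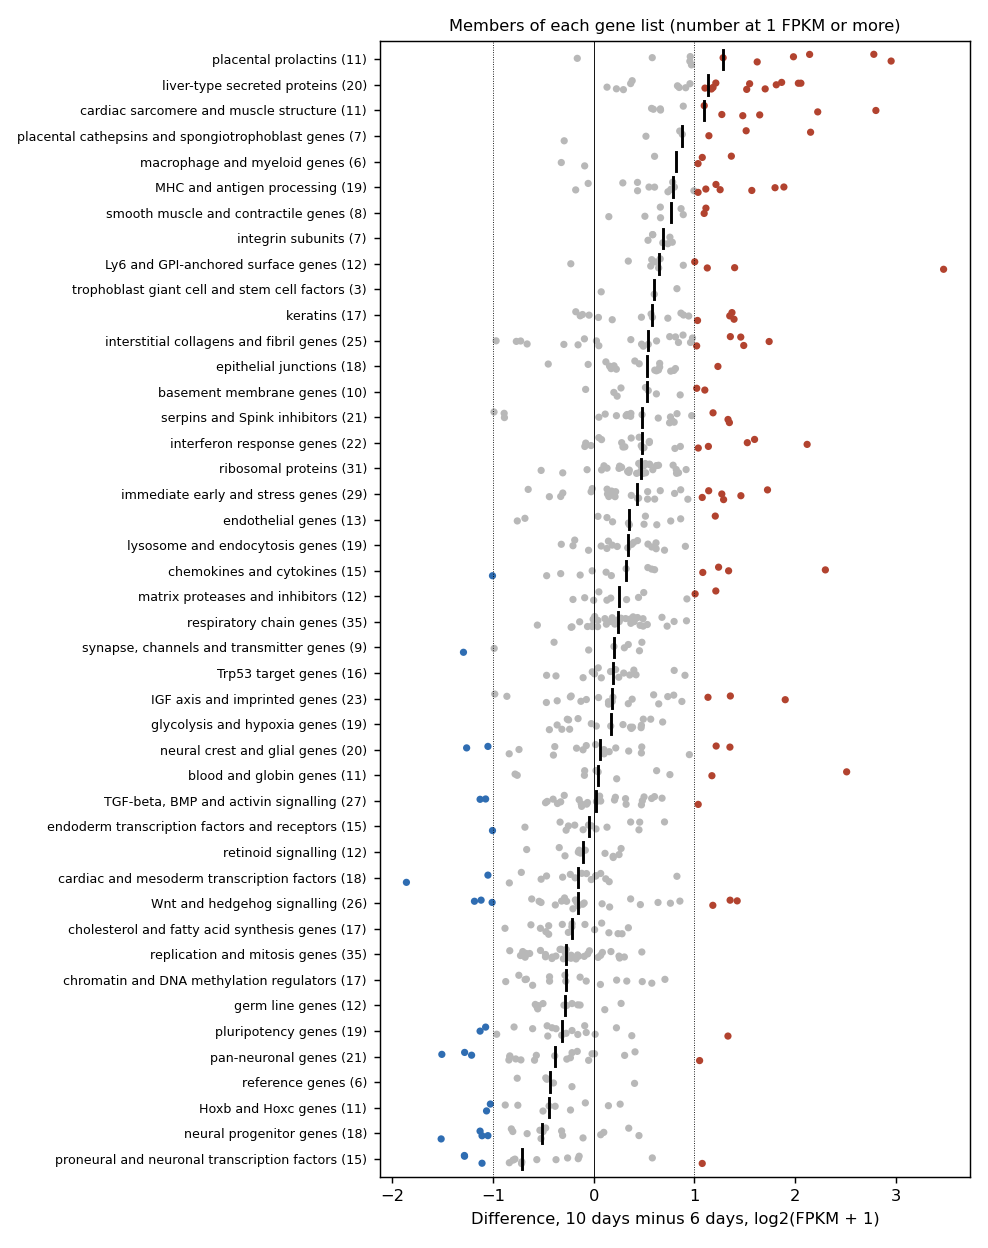
Differences of the tested members of 44 gene lists, 10 days minus 6 days, in log2(FPKM + 1), with the number tested in brackets. Each point is a gene, red where 2-fold or more higher and blue where 2-fold or more lower, and the black bar is the list's median; points are spread vertically for legibility. Placental prolactins, liver-type secreted proteins and muscle structure have medians above 1, and the proneural and progenitor lists lie at the bottom.

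Class I molecules of the major histocompatibility complex (MHC) show peptides on the cell surface and are low in embryonic stem cells. The table held 32 genes of MHC and antigen processing, of which 19 were tested. Of the 19, 7 were higher and none lower, against 3.93% and 0.901% over all genes. Positive differences numbered 17, the median was 0.78, and 2 of the 19 passed only through the 10-day library. H2-K1, a classical class I heavy chain (chromosome 17, 33996017 to 34000347), was at 10.5 FPKM in the control and at 68.9, 62.2 and 187 at 0, 6 and 10 days. H2-D1, the other classical chain here, was at 8.43, 32.9, 44.5 and 107 FPKM. Both were several times above the control already at 0 days, and differed by a further 1.57 and 1.25 in the last interval. The non-classical H2-T23 (Qa-1), at 3.21 and 14.6 FPKM, and H2-Q10, which is secreted by liver, at 1.54 and 7.86, had differences of 1.89 and 1.80. H2-T22 (8.41 and 20.8 FPKM), H2-Q4 (12.3 and 26.2) and the peptide transporter subunit Tap2 (1.71 and 4.86) were also higher, while its partner Tap1 (7.20 and 13.3) was short of 2-fold (0.80). After centring 4 of the 19 were higher, with a median of 0.56: H2-D1 fell to 0.93, Tap2 to 0.87 and H2-Q4 to 0.83, the last also short after upper-quartile scaling (0.91). Of the 19 genes 16 were in the 2 classes of highest GC content. Class I genes are near-identical in part, 29.4% of the exonic bases of H2-T22 lie opposite another gene's exons, and the sources used here do not say whether counting used strand.

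The window before the start of H2-K1 is shown because this gene had the highest 10-day level of the class I genes past 2-fold and holds the known enhancer motifs of class I genes. It is chr17:34000348-34000597 on the minus strand of GRCm38.p6, from RefSeq. The first run of capitals is a site for NF-kappaB and the second part of the element bound by interferon regulatory factors. All windows were searched for the first run exactly as printed, and for the second with any base allowed at the sixth and the seventh place.
H2-K1: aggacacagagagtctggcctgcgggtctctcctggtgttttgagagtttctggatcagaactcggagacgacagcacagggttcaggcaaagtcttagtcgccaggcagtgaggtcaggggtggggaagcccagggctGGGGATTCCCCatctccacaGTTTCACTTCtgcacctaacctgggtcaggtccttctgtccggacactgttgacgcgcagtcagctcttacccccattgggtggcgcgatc

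In H2-K1 these motifs lie at -111 to -101 and at -91 to -82. H2-D1 holds the same 2 matches, at -171 to -161 and at -151 to -142 from its RefSeq start, and over 190 aligned bases the 2 windows were 87.4% identical. Neither motif was found in the H2-T23 window, and sequence outside the windows was not searched. Over all 27025 windows, searched on both strands, the NF-kappaB site stood in 6 (0.0222%) and the interferon element in 397 (1.47%). Among the 15 tested genes of this list with a window, 2 held the former (H2-D1 and H2-K1) and 6 the latter. Both motifs were picked with the values known, and show letters, not binding.

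Of 22 interferon response genes 5 were higher and none lower, against 3.93% and 0.901% over all genes. The median was 0.48, and 2 of the 22 passed only through the 10-day library. Ifi27l2a, an interferon-induced mitochondrial protein, was listed at 0 in the control and was at 2.40 FPKM at 0 days, 3.11 at 6 days and 16.8 at 10 days. Its paralogue Ifi27 was listed at 0 in the control and was at 12.7, 8.4 and 27.4 FPKM over the ATRA series. Both were thus highest at 10 days, by 2.12 and 1.6 over 6 days, and so was Lgals3bp, a secreted galectin ligand, at 9.14 and 28.2 FPKM. Xaf1 (2.81 and 7.39 FPKM) had its highest level, 23.8 FPKM, in the control. The cytokine signalling inhibitor Socs1 (3.42 and 8.08 FPKM) fell short after centring (0.79) and after upper-quartile scaling (0.93). The RNA sensor Dhx58, at 20.5 and 25.3 FPKM, and the receptor chain Ifnar2, at 22 and 39.3, were short of 2-fold.

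Chemokines are small secreted proteins that attract leukocytes. The largest positive difference outside the small RNAs was that of Ccl20, the ligand of the receptor Ccr6 (chromosome 1, 83116766 to 83119167): it was at 0.199 FPKM in the control and at 0.243, 4.56 and 62.1 at 0, 6 and 10 days. The 10-day level was 13.6 times the 6-day level, a difference of 3.51. Of 15 genes in the chemokine and cytokine list, which did not hold Ccl20, 4 were higher and 1 (Cxcr4) lower, and 2 of the 15 passed only through the 10-day library. The monocyte attractants Ccl7 (0.131, 0.124, 2.70 and 17.2 FPKM) and Ccl2 (0.133, 0.767, 14.8 and 39.0) were low in the control and at 0 days and highest at 10 days. Ltb, a membrane lymphotoxin, was at 0.398 and 2.30 FPKM and Cxcl16 at 10.1 and 22.6; after centring Ltb fell to 0.76, and Cxcl16 was at 0.96 after upper-quartile scaling.

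The Ccl20 window of 250 bases before its RefSeq start is chr1:83116516-83116765 on the plus strand, and is shown because of that difference. Capitals mark a looser form of the NF-kappaB motif, with any base allowed from the fifth to the eighth place, at -81 to -72. That form stood in 17.3% of all windows, on either strand, and its matches include those of the stricter site in H2-K1.
Ccl20: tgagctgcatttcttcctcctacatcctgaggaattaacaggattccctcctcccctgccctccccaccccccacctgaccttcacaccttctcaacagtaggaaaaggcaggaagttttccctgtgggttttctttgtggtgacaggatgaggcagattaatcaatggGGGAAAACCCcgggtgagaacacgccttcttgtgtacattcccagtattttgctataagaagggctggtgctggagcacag

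Some genes of myeloid cells were higher too. The table held 28 macrophage and myeloid genes, of which 6 were tested and 3 were higher: the receptor of colony stimulating factor Csf1r (1.44 and 4.15 FPKM), the lipopolysaccharide co-receptor Cd14 (2.31 and 7.52) and the Fc receptor Fcgr3 (5.86 and 13.1). After centring Cd14 alone stayed past 2-fold (1.04), and Csf1r and Fcgr3 were also short after upper-quartile scaling (0.99 and 0.92). The pan-leukocyte gene Ptprc was near 0, at 0.0332 and 0.0227 FPKM, and the 4 macrophage markers summed to 924 FPKM at 6 days and 748 at 10 days, nearly all from the lysosomal gene Cd68 (920 and 736), which was highest in the control (1455). The part of such cells in the chemokine and interferon values was not tested. Of 11 blood and globin genes 2 were higher and none lower, with a median of 0.04 that was -0.04 after upper-quartile scaling, and both higher genes passed the filter only through the 10-day library. Hba-x, the embryonic alpha globin, was listed at 0 in the control and at 0 days, and was at 0.402 and 6.99 FPKM after that, on about 8 and 153 fragments. Hba-a1 was at 0.319 and 1.98 FPKM; it has a near-identical copy, and fell short after centring (0.70). The transferrin receptor Tfrc, which brings iron into red cell precursors and dividing cells, was at 53.1 and 31 FPKM (-0.76). Among 13 endothelial genes only the surface protein Ecscr was higher (5.13 and 13.1 FPKM), against 3.93% of all tested genes. Differences were positive for 11 of the 13, with a median of 0.35, and 4 of the 13 passed only through the 10-day library. Pecam1 had a negative difference, at 4.15 and 2.05 FPKM.

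Epithelial genes were among the most abundant of those that differed. Of 17 keratins 4 were higher and none lower, against 3.93% and 0.901% over all genes. The median was 0.58, and 3 of the 17 passed only through the 10-day library. Krt18, a keratin of simple epithelia, was at 12.8 FPKM in the control and at 120, 743 and 1518 at 0, 6 and 10 days, and its pairing partner Krt8 at 93.7, 102, 753 and 1129. Only the former was past 2-fold (1.03 against 0.58). Krt6b, Krt16 and Krt4, keratins of stratified and stressed epithelia, were low, between 0.291 and 1.05 FPKM at 6 days and between 2.39 and 4.30 at 10 days. After centring the median was 0.26 and 2 genes, Krt4 and Krt6b, were higher, both of which passed the filter only through the 10-day library. Krt18 was at 0.55 after centring and at 0.90 after upper-quartile scaling; 15 of the 17 keratins were in the 2 classes of highest GC content. Among 18 junction genes only the claudin Cldn7 was higher, at 76.7 and 182 FPKM, a count near the share over all genes. Cldn7 fell to 0.76 after centring. Epcam (77.4 and 122 FPKM) and Cldn6 (325 and 354) were short of 2-fold.

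Surface proteins with a lipid anchor gave the next largest positive difference. Psca (chromosome 15, 74714839 to 74717069), named for prostate stem cells and found on several epithelia, was at 1.43 FPKM in the control and at 5.57, 12.7 and 151 at 0, 6 and 10 days. It increased in each library, by 3.47 in the last interval. Of 12 tested genes of the Ly6 and anchored surface list 4 were higher and none lower, against 3.93% and 0.901% over all genes. The higher ones were Psca, Ly6a (5.28 and 15.6 FPKM), Ly6k (2.33 and 6.27) and Ly6d (0.324 and 1.65, passing the filter only through the 10-day library). All 8 tested genes of the Ly6 cluster on chromosome 15 had positive differences. Ly6a was highest in the control (34.7 FPKM). Ly6k and Ly6d fell short after centring (0.80 and 0.68), Ly6d also after both scalings (0.9996 and 0.95), and 47.6% of the exonic bases of Ly6k lie opposite another gene's exons. Msln, a surface protein of mesothelium, was at 8.04 FPKM in the control and at 0.264, 8.97 and 40.9 at 0, 6 and 10 days. The gut hormone gene Pyy was at 0.510, 14.3, 3.91 and 18.5 FPKM. Both dipped before 10 days, Msln at 0 days and Pyy at 6 days.

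Stress-inducible genes were higher as well. Of 29 tested immediate early and stress genes 6 were higher and none lower, against 3.93% and 0.901% over all genes. Positive differences numbered 23, and the median was 0.43. Ctgf, a matricellular protein and target of the Hippo pathway, was at 26.3 FPKM in the control and at 104, 203 and 674 at 0, 6 and 10 days, a difference of 1.72. Ddit3, of the unfolded protein response, was at 47.3 and 117 FPKM, Gadd45b at 21.8 and 61.9, and Ier3 at 45.7 and 112. Fos, a subunit of the AP-1 factor, was at 5.35 and 13 FPKM, both below its 46.0 in the control and 72.2 at 0 days. After centring Ctgf (1.65) and Ddit3 (1.19) stayed past 2-fold, while Gadd45b (0.98), Ier3 (0.94), Fos (0.94) and Gadd45g (0.60) did not; Gadd45g was also short after upper-quartile scaling (0.95). None of 16 Trp53 target genes reached 2-fold, with Cdkn1a at 182 and 233 FPKM.

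Signalling genes went in both directions. Of 26 Wnt and hedgehog genes 3 ligands were higher, Wnt6 (2.89 and 9.44 FPKM), Wnt10a (1.47 and 5.32) and Wnt7b (6.60 and 16.2), and 3 genes were lower. The lower ones were the ligand Wnt1, listed at 0 in the control and at 0.636, 6.72 and 2.40 FPKM in the ATRA series, and the pathway targets Gli1 (3.82 and 1.22) and Axin2 (4.62 and 1.80). Wnt6 was highest in the control, at 10.9 FPKM. The median of the list was -0.16, and 0.16 among genes at 5 FPKM or more. Wnt7b fell short after centring (0.94).

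In TGF-beta, BMP and activin signalling 1 of 27 genes was higher and 2 were lower, against 3.93% and 0.901% over all genes. The median was 0.03, and -0.11 after upper-quartile scaling. The BMP inhibitor Nog was at 0.829 FPKM in the control and at 1.01, 11.3 and 24.2 at 0, 6 and 10 days; it fell short after centring (0.56) and after upper-quartile scaling (0.91). Lefty1 (12.6 and 5.24 FPKM) and Lefty2 (17.6 and 7.84), inhibitors of Nodal, were lower, and are also counted among 19 pluripotency genes, of which 2 were lower and 1 higher. That higher gene was the kinase Pim3, at 97.2 FPKM in the control and at 47.7, 26.6 and 68.6 at 0, 6 and 10 days. Differences were negative for 15 of the 19 pluripotency genes, with a median of -0.32, and of -0.40 after centring. Among 23 genes of the IGF axis and imprinted genes 3 were higher: Igfbp6, which binds IGF2 (4.46 and 19.4 FPKM), Dlk1, a Notch-like inhibitor of fat cell formation (29.9 and 66.8), and Dcn. Meg3, an imprinted noncoding RNA near Dlk1, was at 189 and 297 FPKM, short of 2-fold.

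No member of the lists for basic cell functions was past 2-fold: 35 genes of replication and mitosis, 35 of the respiratory chain, 31 ribosomal proteins, 19 of glycolysis and hypoxia, 19 of lysosomes, 17 of cholesterol and fatty acid synthesis, 17 chromatin regulators, 12 of the germ line and 6 reference genes. Their medians were not all near that of all genes. Replication and mitosis genes had a median of -0.27 with 27 of 35 differences negative, and chromatin regulators one of -0.28, with Uhrf1, which maintains DNA methylation, at 47.1 and 29.0 FPKM (-0.68). Ribosomal proteins had a median of 0.46, which was 0.18 after centring. The most abundant transcript of a coding gene at 10 days was that of Rpl41, at 6128 FPKM at 6 days and 8612 at 10 days. None of the 117 tested Zfp genes, which encode zinc finger proteins, was past 2-fold, and 96 had negative differences (median -0.28). The 6 reference genes had a median of -0.43, with 5 negative differences, and Ppia among them was at 3663 and 2778 FPKM (-0.40).

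**Figure D5:**
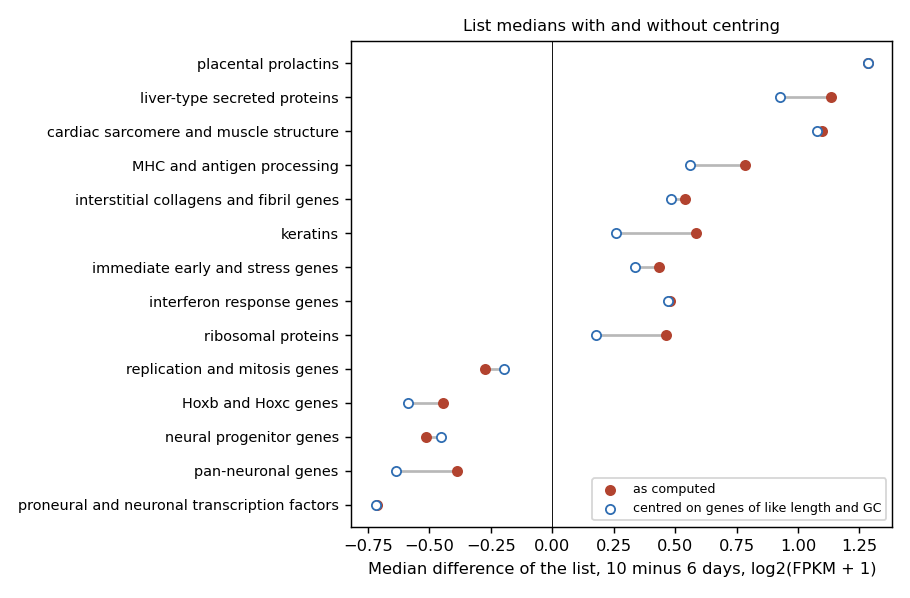
Median difference of 14 gene lists, 10 days minus 6 days, in log2(FPKM + 1), as computed (filled) and after each gene was centred on genes of like transcript length and GC content (open). Keratins moved from 0.58 to 0.26 and ribosomal proteins from 0.46 to 0.18, while placental prolactins stayed at 1.28 and proneural factors at -0.71 and -0.72.

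The 2 largest negative differences of coding genes were of another kind. Ispd, which makes a sugar donor for dystroglycan (chromosome 12, 36381450 to 36689503), was at 5462 FPKM in the control and at 10749, 11919 and 1.01 at 0, 6 and 10 days. Filip1l (chromosome 16, 57353093 to 57573126) was at 3396, 3750, 12131 and 1379 FPKM. Ispd was thus very abundant in all libraries but the last, where it was near 1 FPKM. Beside Ispd and Filip1l, the ribosomal RNA precursor Rn45s was at 543, 1191, 2629 and 402 FPKM. Cmss1, whose gene spans the Filip1l region, was at 233, 907, 938 and 510. The part of ribosomal or other repeated sequence in these values was not tested. Smaller negative differences of general factors were those of the RNA helicase Dhx9 (108, 50.8, 50.7 and 21.2 FPKM) and of Bclaf1, a factor of splicing and transcription (56.9, 37.0, 40.2 and 18.4), both highest in the control and lowest at 10 days. Bclaf1 fell short of 2-fold after centring (-0.82).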

How the data were processed

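RNA was sequenced from 4 libraries of ES-E14TG2a embryoid bodies, 1 a group, grouped by the labels. The deposited values are FPKM per the file headers. Trimmomatic, TopHat, Cufflinks and mm10 are named per the submitters' processing notes, without versions; strand use and filters are not stated in the sources used here. FPKM are relative to each library's total, so abundant transcripts lower all others, and reads of similar genes are divided by a model.

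The 10201 rows were summed to 9997 symbols, and 1 was added before log2. With 1 library a side there is no test: genes at 1 FPKM or more in either library were called at 2-fold. Depth was estimated from low values of genes with 1 transcript; errors given cover counting only. Positions, lengths and GC content came from GENCODE M21 (9842 symbols matched), promoter windows from RefSeq GRCm38.p6 (3958 of 5550 tested genes).

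The 44 gene lists (1559 genes, 986 in the table, 675 tested) and all members were chosen with earlier results of these data known. Some genes are in several lists, and some are not reported here by name. Genes named are the 15 largest rises and falls at 5 FPKM or more, passing over predicted genes, small and ribosomal RNAs, list members past 2-fold or abundant, and the most abundant coding genes; cell type markers serve as checks. Alternatives were pseudocounts of 0.1 and 0.5, other filters, 2 scalings, a 4-fold threshold, the highest row of a symbol, no small RNAs, and centring by length and GC content (added after seeing the data). Steps were tested on simulated data. Software was matplotlib 3.10.9, scipy 1.17.1, pandas 2.3.3, numpy 2.4.6 and Python 3.11.15.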

Additional observations from a re-analysis of the deposited data

How the results depend on the processing

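Against 218 higher and 50 lower genes, a pseudocount of 0.1 gave 350 and 148, and one of 0.5 gave 279 and 93. A minimum of 5 FPKM left 183 higher and 30 lower, upper-quartile scaling 158 and 76, and a 4-fold threshold 29 and 7. Median-ratio scaling, no filter, the highest row of a repeated symbol, leaving out small and ribosomal RNAs, and centring on length and GC content, which was chosen after seeing the data, kept both counts within 1.5 times. Of 115 named genes past 2-fold, 32 fell short under at least 1 alternative with the 2-fold threshold: 29 under centring, 16 under upper-quartile scaling and 2 under median-ratio scaling. None of the 115 changed sign under the alternatives run. No paired analysis was possible because each group has 1 library. In the higher library, none of the 218 higher genes and 2 of the 50 lower ones rested on fewer than 20 estimated fragments. The estimate uses FPKM and transcript length, so genes without a length were not counted and values of small RNAs are unstable. At 6 days some higher genes rested on few fragments, such as Hba-x (8), Prl2c3 (10) and Prl3b1 (15), which leaves the size of their differences uncertain. Variation between cultures is unknown.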

Other observations

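Some genes past 2-fold in none of the gene lists were named after their values were seen. Histone genes of the cluster on chromosome 13 went both ways. Hist1h2bc was at 21.6 FPKM at 6 days and 80.6 at 10 days, and the linker histone Hist1h1c at 10.8 and 28.2, while the linker histones Hist1h1e (2.83 and 0.690) and Hist1h1d (3.32 and 1.05) were lower. Of 19 tested genes of that cluster 3 were higher and 3 lower. Histone genes are near-identical and their typical messages lack poly(A) tails, so these values are uncertain.

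The following genes were picked singly, so no statement on a group rests on them. The trefoil factor Tff3 was listed at 0 in the control and was at 21 FPKM at 0 days, 17.6 at 6 days and 68.5 at 10 days. Scgb3a1, a secretoglobin of airways, went from 1.48 to 7.70 FPKM, the surfactant protein Sftpd, which passed the filter only through the 10-day library, from 0.453 to 3.09 and the chitinase-like Chil1 from 2.82 to 13.7. The last had its lowest level in the control, at 0.622 FPKM. Among abundant genes, Bsg, a partner of lactate transporters, went from 675 to 1452 FPKM and Crip1, a LIM protein, from 107 to 322, after 248 in the control. The splicing factor Srsf3 went from 250 to 120 FPKM, and Olig3, a factor of dorsal spinal cord progenitors, from 2.12 to 0.186.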
